A study of Caenorhabditis elegans with 12 samples.

Results

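The 77 genes described here are named for proteins of the cytosolic ribosome of Caenorhabditis elegans. They were chosen by name: gene entries in the authors' deposited comparison table whose symbol is rpl or rps followed by a number, together with the stalk genes rla-0, rla-1 and rla-2 and the ubiquitin-like fusion gene ubl-1. They are 77 of the 44968 gene entries in the count tables. By symbol, 42 belong to the large subunit, 32 to the small subunit (ubl-1 among them) and 3 to the stalk. All 77 passed the filter on low counts. Apart from presence in that table, which lists 12395 genes, no measured value entered the choice.

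Polyadenylated RNA was sequenced from first-stage (L1) larvae that had hatched without food and were frozen in arrest, about 24 h after the bleach that released them as embryos. The parents had grown for 72 h on HT115 bacteria expressing double-stranded RNA against daf-2, which encodes the insulin/IGF receptor, or against pitr-1, which encodes a phosphate transporter, or carrying the empty vector. Every animal, the empty vector group included, carried hrde-1(tm1200), an allele of a nuclear Argonaute gene that acts in inherited silencing, so no group was wild type for hrde-1. Each treatment has 4 libraries, which the labels call biological replicates 1 to 4. The p-values measure the spread between these libraries, and nothing in the labels tells whether libraries that share a number were prepared together. The treatment was given to the parents and the RNA is that of their progeny.

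Ribosomal proteins assemble on ribosomal RNA in the nucleolus, in near-equal numbers, to form a small subunit that reads the mRNA and a large subunit that joins amino acids. Their genes are among the most heavily transcribed in growing animals, and insulin and TOR signalling, which respond to food, are known to control ribosome production. In C. elegans, ribosomes supplied by the mother support embryos and newly hatched larvae, and arrested L1 larvae do not grow until they feed.

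The libraries held 5907286 to 11490429 gene counts, of which 16.1% to 47.1% came from ribosomal RNA genes and 0.606% to 5.51% from mitochondrial genes. Reads that did not align made up 16.3% to 39.8% of a library, and the highest share was in pitr-1 RNAi replicate 1, which also had the fewest gene counts. Markers of larval tissues were present in every library: those of body wall muscle summed to 1390.2 to 3704 CPM (counts scaled to a common library size), of neurons to 458 to 819.5 CPM and of intestine to 43.3 to 63.5 CPM. The 6 germline and maternal markers summed to 44.7 to 162 CPM in daf-2 RNAi, 43.5 to 158 CPM in pitr-1 RNAi and 28.5 to 75.9 CPM in empty vector libraries, and their part in the results was not tested. Sperm markers reached at most 2.70 CPM and yolk genes at most 10.2 CPM. The RNAi targets themselves did not pass the test in progeny: daf-2 had 47.5 ± 19.3 CPM in daf-2 RNAi and 65.3 ± 15.95 CPM in empty vector libraries, and pitr-1 had 212 ± 73.5 CPM in pitr-1 RNAi and 217 ± 28.6 CPM in empty vector libraries (SD, n = 4 each; edgeR quasi-likelihood, Benjamini-Hochberg adjusted p = 1.00 in both).

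Ribosomal protein genes were among the most abundant messages of the arrested larvae. Levels were compared between genes as CPM per kilobase of exonic length, averaged over the 12 libraries. On that scale the median of the 77 genes was 2506, with quartiles of 1714 and 3266, while the median of the 13856 protein-coding nuclear genes tested was 8.27, a ratio of 303. The 100 highest protein-coding genes on that scale included 68 of the 77, and the 50 highest included 37. Most of the family lay close together: 70 of 77 genes fell between 1000 and 5000 CPM per kilobase. Small-subunit genes had a median of 2907 and large-subunit genes one of 2103. Levels per kilobase fell with exonic length, with medians of 3058, 2546 and 1792 in the shortest, middle and longest genes of the family. Spearman's rho of the level per kilobase with length was -0.58 across the 77 genes and -0.50 across 9639 genes. The order of genes on this scale is thus not free of length.

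**Figure D1:**
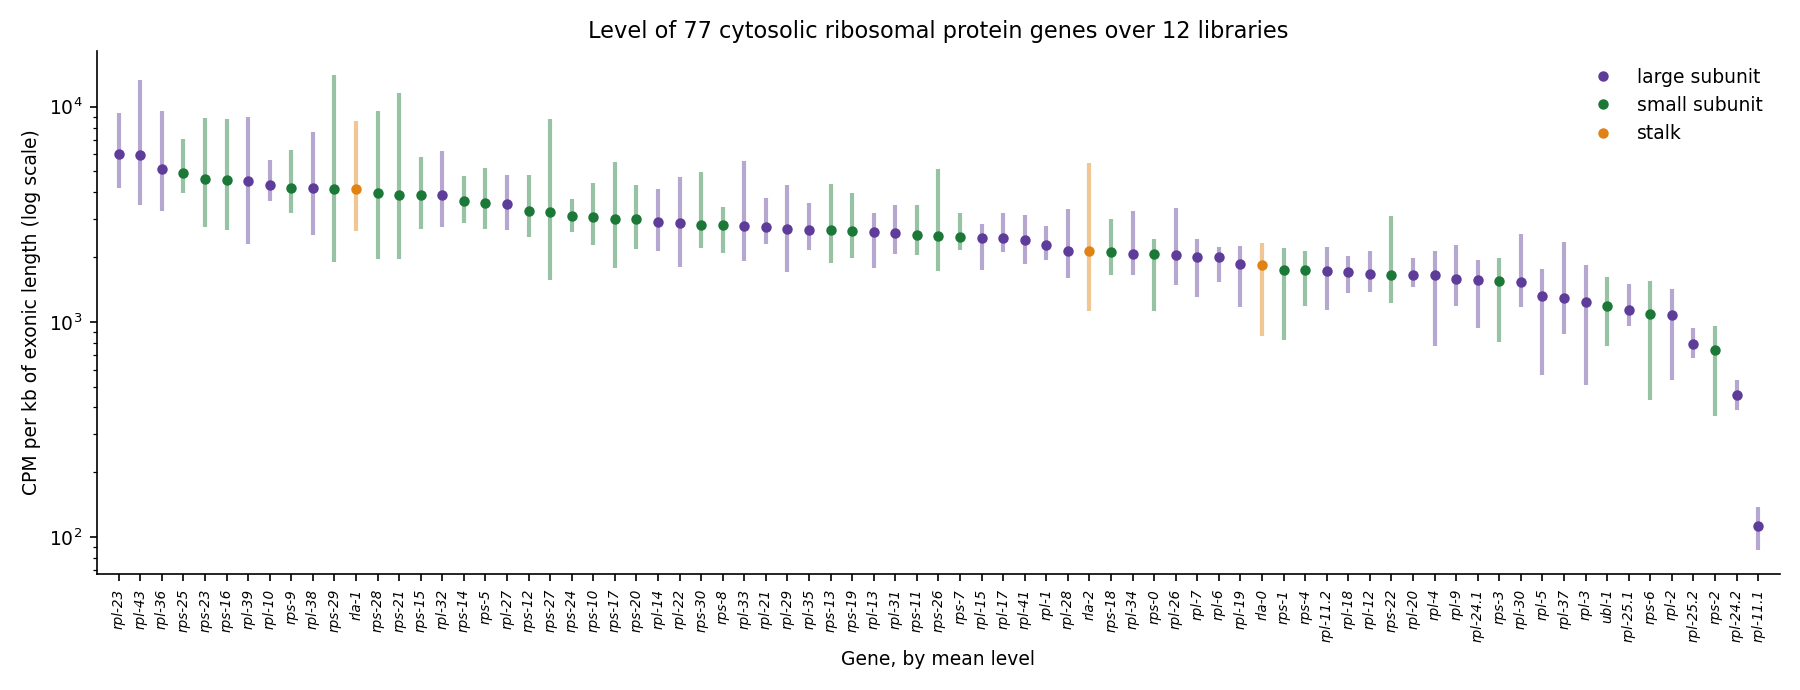
Mean level of each of the 77 ribosomal protein genes (points) and its lowest and highest value over the 12 libraries (bars), in CPM per kilobase of exonic length on a log scale, ordered by mean level. Most means lie between 1000 and 5000, and rpl-11.1, at 113, stands apart at the low end.

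At the high end were rpl-23 with 6046 CPM per kilobase, rpl-43 with 5935 and rpl-36 with 5149, all of the large subunit. They were followed by rps-25 with 4915 and rps-23 with 4596, the second of which encodes a small-subunit protein at the decoding centre. These genes varied between libraries by more than they differed from each other: rpl-23 ranged over libraries between 4180.3 and 9371 CPM per kilobase, rpl-43 between 3505 and 13315. Their order is therefore a description only. At the low end were rpl-11.1 with 113 CPM per kilobase, rpl-24.2 with 455, rps-2 with 742, rpl-25.2 with 785 and rpl-2, which encodes a protein at the peptidyl transferase centre, with 1079. The highest library of rpl-11.1 had 137 CPM per kilobase and the lowest library of rpl-24.2 had 389.7, so the lowest 2 genes did not overlap.

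Of the 5 genes at the low end, 3 share their number with another gene of the family, and in each case that gene was higher in all 12 libraries. The rpl-11 pair encodes the large-subunit protein that binds 5S ribosomal RNA together with the product of rpl-5. Per kilobase, rpl-11.2 exceeded rpl-11.1 by 9.44 to 20.5 times, with a median of 15.04. Of the 2 rpl-24 genes, rpl-24.2 is related to a factor that holds the place of the ribosomal protein during assembly in yeast, and rpl-24.1 exceeded it by 2.31 to 4.14 times. For rpl-25, rpl-25.1 exceeded rpl-25.2 by 1.27 to 1.89 times. Reads that match both genes of a pair could be divided between them by the counting, so these ratios are uncertain to that extent.

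Within the rpl-11 pair, rpl-11.1 made up 7.04% ± 1.82 of the pair's level per kilobase in daf-2 RNAi, 6.10% ± 0.727 in pitr-1 RNAi and 5.77% ± 0.815 in empty vector libraries (SD, n = 4 each). The rpl-24.2 share of its pair was 23.3% ± 4.31 in daf-2 RNAi, 24.5% ± 4.13 in pitr-1 RNAi and 21.1% ± 2.10 in empty vector libraries. The rpl-25.2 share was 41.7% ± 1.69 in daf-2 RNAi, 39.7% ± 3.63 in pitr-1 RNAi and 41.4% ± 1.39 in empty vector libraries. The differences between group means were smaller than the largest SD of the 3 groups in each pair.

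The stalk is the flexible arm of the large subunit that recruits elongation factors. Its anchor gene rla-0 had 1834 CPM per kilobase, and the genes of the 2 smaller proteins had 4145 (rla-1) and 2124 (rla-2). By library, rla-0 had 884, 2205, 1944 and 2274 CPM in daf-2 RNAi replicates 1 to 4, 1635, 2001, 1487 and 1748 CPM in pitr-1 RNAi, and 1964, 2204, 1988 and 2396 CPM in empty vector. The anchor was lowest in daf-2 RNAi replicate 1, and the groups overlapped. By contrast, rla-2 had 1403, 586, 984 and 604 CPM in daf-2 RNAi, 2463, 507, 716 and 545 CPM in pitr-1 RNAi, and 1086, 568, 1307 and 724 CPM in empty vector, so replicates 1 and 3 were higher than replicates 2 and 4 in every group. The same held for rla-1, which reached 3792 CPM in pitr-1 RNAi replicate 1. The fusion gene ubl-1, which encodes a small-subunit protein behind a ubiquitin-like domain, had 438, 688, 717 and 918 CPM in daf-2 RNAi, 468, 719, 517 and 748 CPM in pitr-1 RNAi, and 590.2, 755, 657 and 841 CPM in empty vector. Replicate 1 was the lowest and replicate 4 the highest library of ubl-1 in each group.

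The 77 genes together took 11.23% ± 1.05 of all gene counts in daf-2 RNAi, 10.6% ± 1.17 in pitr-1 RNAi and 9.94% ± 1.18 in empty vector libraries (SD, n = 4 each). With ribosomal RNA genes left out of the denominator, the empty vector mean was the highest of the 3 and no longer the lowest: 15.1% ± 0.949 in daf-2 RNAi, 14.5% ± 1.00 in pitr-1 RNAi and 15.6% ± 1.21 in empty vector libraries. Ribosomal RNA made up 25.3% ± 7.91 of gene counts in daf-2 RNAi, 26.3% ± 12.3 in pitr-1 RNAi and 36.03% ± 10.2 in empty vector libraries. The mRNA libraries select polyadenylated RNA, so this share is not a measure of the cells' ribosomal RNA. The groups overlapped with either denominator, and no test was made of the summed share. In whole larvae, fewer cells of a type and less RNA per cell cannot be told apart.

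**Figure D2:**
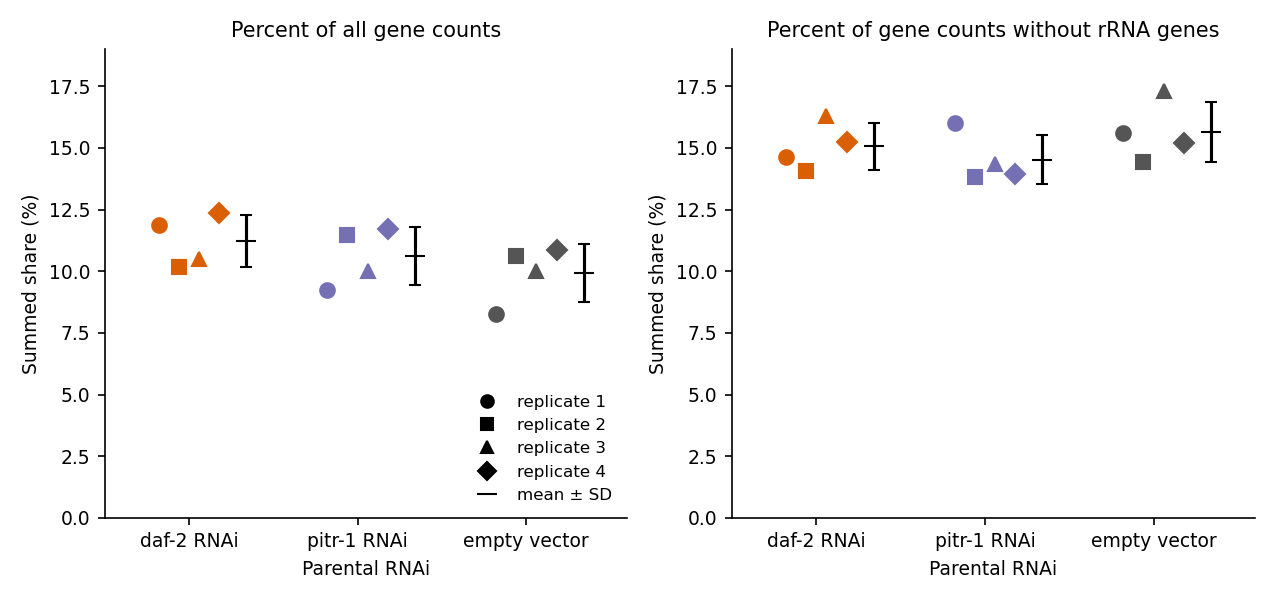
Summed share of the 77 ribosomal protein genes in each library, in percent, by RNAi treatment of the parents (symbols mark replicate numbers, bars the mean ± SD of 4 libraries). The mean is highest in daf-2 RNAi when all gene counts are the denominator and highest in empty vector when ribosomal RNA genes are left out, and the groups overlap in both panels.

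The first comparison named in the series' design asks how progeny of daf-2 RNAi parents differ from progeny of empty vector parents. No ribosomal protein gene was called in either direction: 0 of 77 had an adjusted p under 0.05 by edgeR's quasi-likelihood test with Benjamini-Hochberg adjustment, against 0.0341% of the 14664 genes tested. None had an unadjusted p under 0.05, against 3.59% of all genes, and DESeq2 called 0 as well, against 0.27% of all genes. The log2 fold changes (daf-2 RNAi over empty vector) lay between -0.37 and 0.09, with a median of -0.08, and 63 of 77 were below 0. Among all genes tested the median was 0.00 and 49.3% were below 0. Small-subunit genes had a median of -0.12 and large-subunit and stalk genes one of -0.07.

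For the median gene the standard error of the log2 fold change was 0.25, and 71 of the 77 approximate 95% intervals lay wholly between -1 and 1. At this precision a change of 2-fold or more was outside the interval for most of the family, while differences of the size of the observed medians could not be resolved gene by gene. The 63 of 77 genes below 0 rested on single libraries: without empty vector replicate 3, 32 genes were below 0 with a median of 0.04, and without daf-2 RNAi replicate 2, 40 were below 0 with a median of -0.02.

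The 4 ribosomal protein genes with the smallest unadjusted p in this comparison were rpl-11.2, rps-2, rps-5 and rps-9. The large-subunit gene rpl-11.2 had 832, 1215, 1598 and 1222 CPM in daf-2 RNAi replicates 1 to 4, against 1594, 1243, 1624 and 1290.5 CPM in empty vector. It was lower in daf-2 RNAi for all 4 replicate numbers, the groups overlapped, and the log2 fold change was -0.24 ± 0.21 (SE). Small-subunit gene rps-2 had 366, 762, 749 and 931 CPM in daf-2 RNAi, against 738, 864, 759.6 and 951 CPM in empty vector. The gap was widest in replicate 1 (log2 fold change -0.24 ± 0.25, SE). Without daf-2 RNAi replicate 1 the log2 fold change of rpl-11.2 was -0.10 and that of rps-2 was -0.03. The genes rps-5 and rps-9 encode small-subunit proteins whose counterparts bind ribosomal RNA early in assembly in bacteria. They had 2335 ± 249.8 and 2644 ± 501 CPM in daf-2 RNAi, against 2766 ± 678 and 3162 ± 891 CPM in empty vector (SD, n = 4 each), with log2 fold changes of -0.24 ± 0.23 and -0.26 ± 0.25 (SE). Without empty vector replicate 3 the log2 fold changes of rps-5 and rps-9 were both -0.09. All 4 genes had an adjusted p of 1.00 (edgeR quasi-likelihood), and over the other settings tried it ranged between 0.744 and 1.00.

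The other comparison in the series' design sets progeny of pitr-1 RNAi parents against the same controls. Again 0 of 77 ribosomal protein genes were called, against 0.00682% of all genes tested (edgeR quasi-likelihood, Benjamini-Hochberg). None had an unadjusted p under 0.05, against 1.73% of all genes, and DESeq2 called 0, against 0.00322%. The log2 fold changes (pitr-1 RNAi over empty vector) lay between -0.35 and 0.51, with a median of -0.15 against 0.02 for all genes, and 59 of 77 were below 0 against 46.5% of all genes. In 69 of the 77 genes the 95% interval lay wholly between -1 and 1. The 2 comparisons share the 4 empty vector libraries, so these sets of values are not independent of each other.

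Single libraries moved this result in both directions. Without pitr-1 RNAi replicate 1, the library with the most unaligned reads, 77 of 77 genes were below 0 with a median of -0.29, and still none was called. Without empty vector replicate 3, 38 of 77 were below 0 with a median of 0.01. The median was also closer to 0 without pitr-1 RNAi replicate 2 (-0.05) and without pitr-1 RNAi replicate 4 (-0.06).

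The 4 genes with the smallest unadjusted p were rpl-11.1, rpl-11.2, rpl-18 and rps-4. The minor copy rpl-11.1 had 70.1, 56.7, 68.2 and 65.2 CPM in pitr-1 RNAi replicates 1 to 4, against 69.6, 78.4, 89.9 and 74.0 CPM in empty vector. It was lower in 3 of the 4 numbers and the groups overlapped by the replicate 1 values (log2 fold change -0.26 ± 0.15, SE). The major copy rpl-11.2 had 1078, 1142, 1255 and 1029 CPM in pitr-1 RNAi, against 1594, 1243, 1624 and 1290.5 CPM in empty vector (log2 fold change -0.35 ± 0.21, SE). A single empty vector library, replicate 2, lay within the range of the pitr-1 RNAi libraries.

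For rpl-18, of the large subunit, the values were 1063, 1073, 894 and 1026 CPM in pitr-1 RNAi, against 1119, 1164, 1309 and 1321 CPM in empty vector (log2 fold change -0.28 ± 0.17, SE). For rps-4, of the small subunit, they were 1162, 1491, 1220.2 and 1383 CPM in pitr-1 RNAi, against 1511, 1569.8, 1675 and 1696 CPM in empty vector (log2 fold change -0.30 ± 0.20, SE). In both genes every pitr-1 RNAi library was below every empty vector library. The adjusted p of these 4 genes was 1.00 (edgeR quasi-likelihood) and ranged between 0.884 and 1.00 over the other settings.

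In all, 9 of the 77 genes had every pitr-1 RNAi library below every empty vector library, against 0.614% of all genes tested, and 0 had the groups apart the other way, against 0.736%. Besides rpl-18 and rps-4 they were rpl-6, rpl-13, rpl-15, rpl-20, rpl-24.1, rps-8 and rps-24, some of which are named here after their values were seen. Without pitr-1 RNAi replicate 1 the count was 20, but groups with fewer libraries separate more easily. The share of all genes without that library was not computed, so the 20 has no background to be set against. In daf-2 RNAi 0 of 77 genes were separated from empty vector in this way in either direction, against 1.07% of all genes lower and 1.55% higher.

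**Figure D3:**
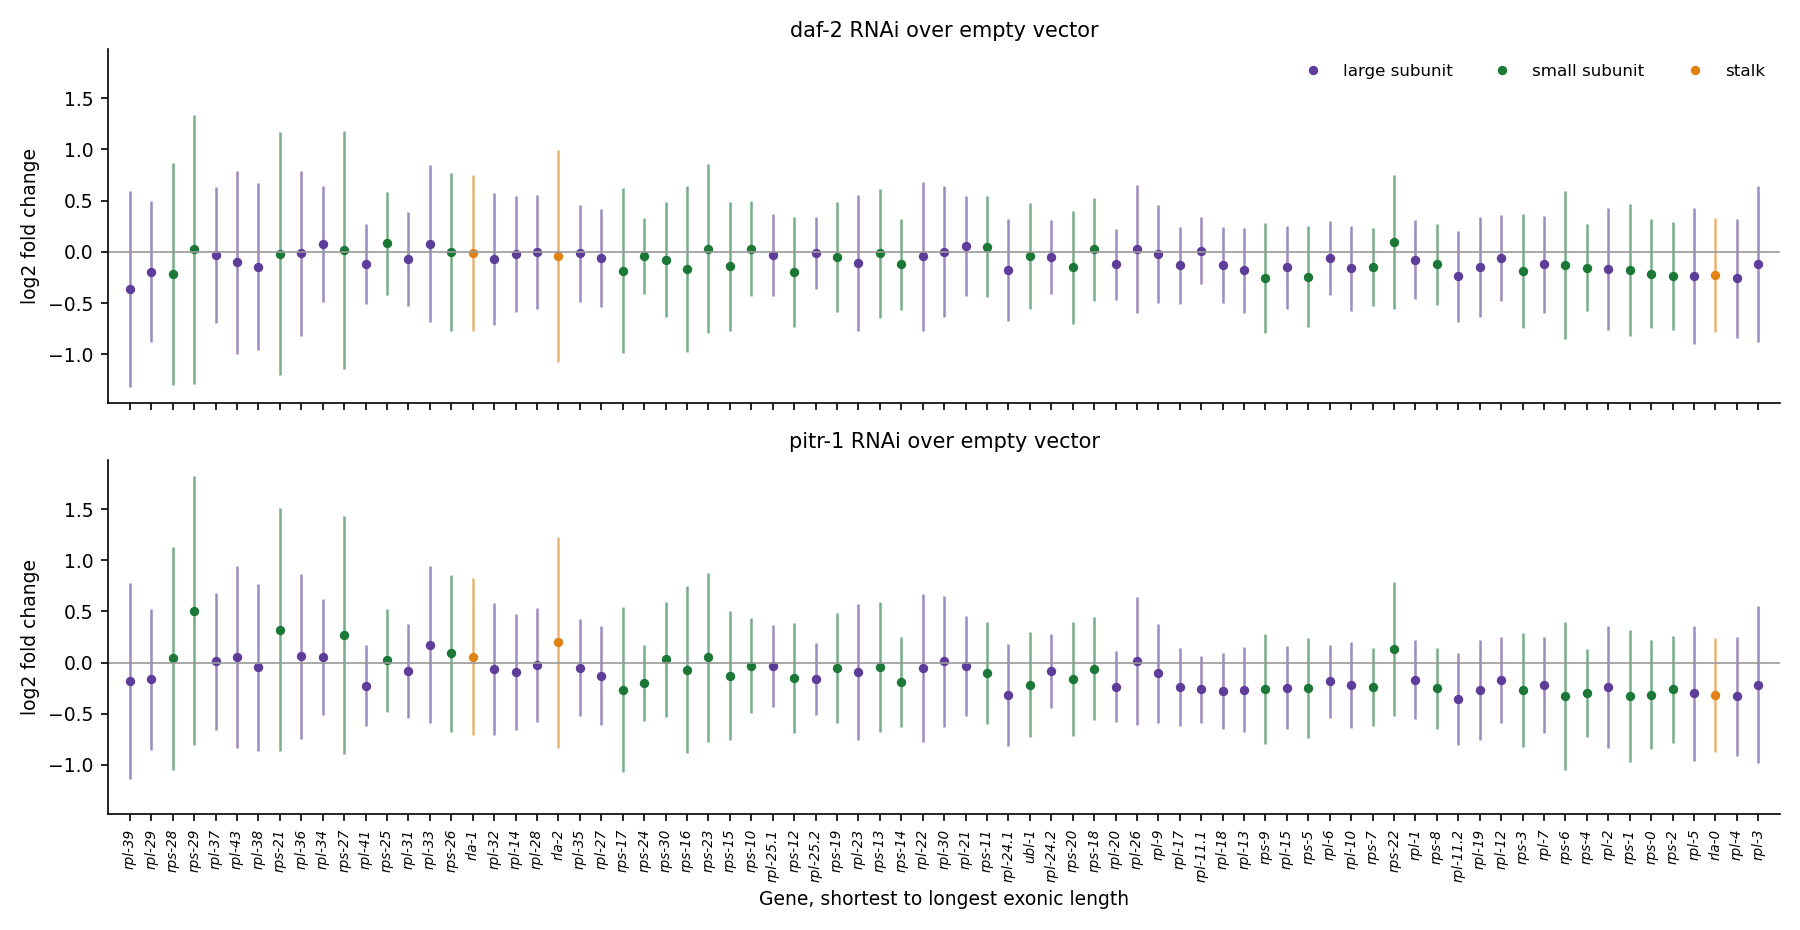
The log2 fold changes of the 77 ribosomal protein genes with approximate 95% intervals (edgeR quasi-likelihood), in daf-2 RNAi over empty vector (top) and pitr-1 RNAi over empty vector (bottom), ordered by exonic length. In this fit, made without the replicate block, all 77 intervals hold 0 in both panels. The intervals of short genes such as rps-29 and rps-21 are the widest.

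Comparing libraries of the same replicate number showed where the 2 comparisons came from. Between pitr-1 RNAi and empty vector the median log2 difference over the 77 genes was 0.29 in replicate 1, -0.09 in replicate 2, -0.55 in replicate 3 and -0.21 in replicate 4. The number of genes lower in pitr-1 RNAi was 30 in replicate 1, 74 in replicate 2, 77 in replicate 3 and 73 in replicate 4. Over all genes of at least 5 CPM, 48.1% to 55.1% were lower in these pairs, with medians between -0.06 and 0.04. Replicates 2 to 4 thus had nearly the whole family lower in pitr-1 RNAi, by differing amounts, and replicate 1 did not.

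Between daf-2 RNAi and empty vector the same medians were 0.10, -0.05, -0.28 and -0.01 in replicates 1 to 4, with 36, 50, 71 and 42 of 77 genes lower. Replicate 3 thus had the most genes lower in daf-2 RNAi, as it had in pitr-1 RNAi, and both values use the same empty vector library, which was the highest of the 12 in summed share without ribosomal RNA (17.3%). Lower in all 4 numbers were 6 of 77 genes in daf-2 RNAi, against 7.86% of all genes, and 27 of 77 in pitr-1 RNAi, against 6.03% of all genes.

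**Figure D4:**
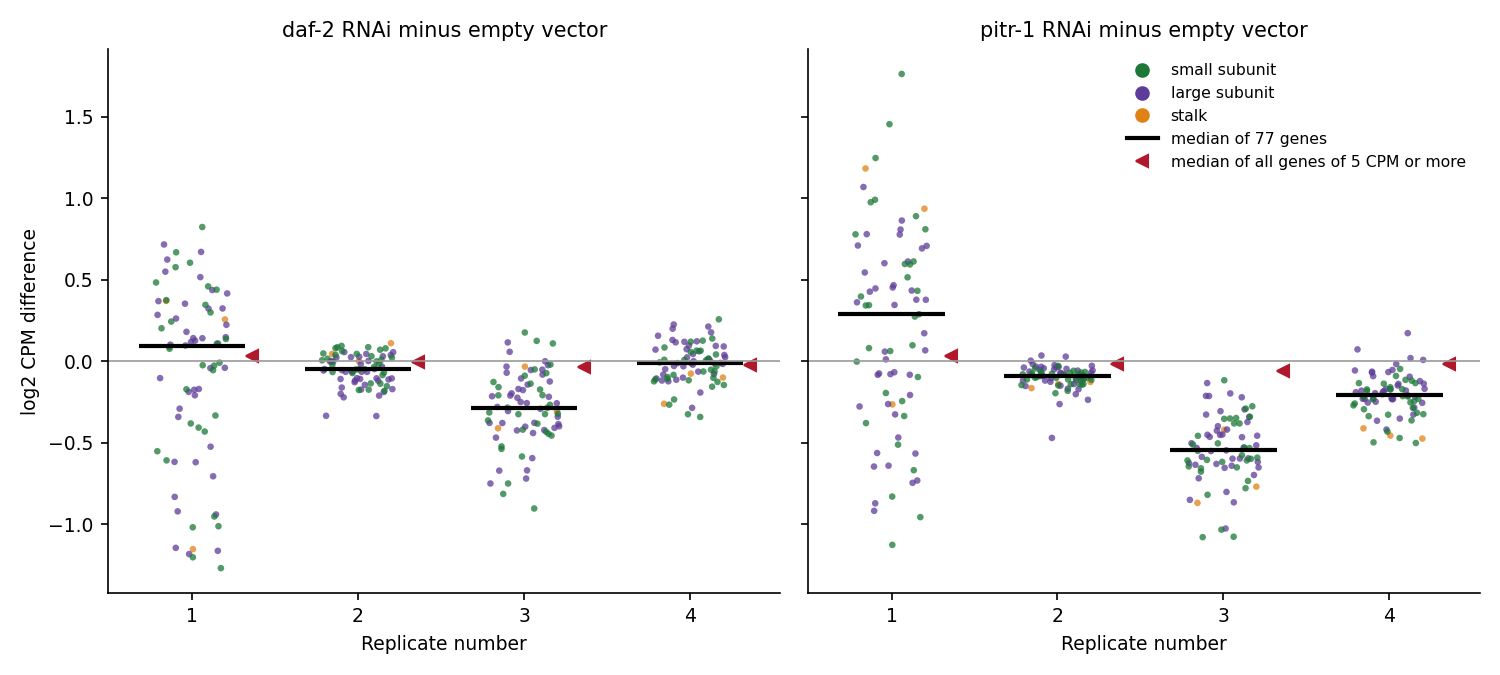
Difference in log2 CPM of each ribosomal protein gene between libraries of the same replicate number, daf-2 RNAi minus empty vector (left) and pitr-1 RNAi minus empty vector (right); bars mark the median of the 77 genes and triangles that of all genes of 5 CPM or more. In pitr-1 RNAi the median is below 0 in replicates 2, 3 and 4 and at 0.29 in replicate 1, where single genes spread between -1.12 and 1.76.

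With the replicate number as a block in the fit, 0 of 77 genes were called in either comparison, against 0.314% of all genes for daf-2 RNAi and 0.00682% for pitr-1 RNAi (edgeR quasi-likelihood). The lowest adjusted p was 0.683 for daf-2 RNAi and 0.999 for pitr-1 RNAi. The median standard error was 0.16, and all 77 intervals lay between -1 and 1 in both comparisons. In this fit 68 of 77 genes were below 0 in daf-2 RNAi with a median of -0.12, against 50.3% of all genes. In pitr-1 RNAi 75 of 77 were below 0 with a median of -0.16, against 49.3% of all genes. In pitr-1 RNAi rpl-11.2 (log2 fold change -0.35, unadjusted p = 0.0430) and rpl-24.1 (-0.36, unadjusted p = 0.0454) were the 2 with an unadjusted p under 0.05, against 3.65% of all genes. The authors' deposited table, made with a batch correction, lists 0 of the 77 genes at a false discovery rate under 0.05 in either comparison. Of its 12395 genes, 24 were under that rate in the first and 0 in the second, so the second is not particular to the family. Below 0 were 67 of 77 genes in the first, against 49.87% of all its genes, and 73 of 77 in the second, against 48.22%.

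The 2 treatments were also set against each other. No ribosomal protein gene was called between daf-2 RNAi and pitr-1 RNAi (0 of 77, against 0.0136% of all genes, edgeR quasi-likelihood). None had an unadjusted p under 0.05, against 2.23% of all genes, and DESeq2 called 0, against 0.123%. The median log2 fold change (daf-2 RNAi over pitr-1 RNAi) was 0.06, and 23 of 77 genes were below 0 against 52.7% of all genes. The sign of the median rested on single libraries. Without daf-2 RNAi replicate 1, 42 genes were below 0 with a median of -0.02, and 41 were below 0, with a median of -0.01, without replicate 2 of pitr-1 RNAi. Without pitr-1 RNAi replicate 1 the count was 12 with a median of 0.22, without pitr-1 RNAi replicate 3 it was 35, without pitr-1 RNAi replicate 4 it was 36, and without daf-2 RNAi replicate 2 it was 11. A single gene, rpl-11.1, had the groups apart, against 1.04% of all genes: 78.9, 75.005, 79.9 and 80.4 CPM in daf-2 RNAi, and 70.1, 56.7, 68.2 and 65.2 CPM in pitr-1 RNAi.

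The factors that build ribosomes and use them were examined alongside. Of 30 ribosome biogenesis genes, 6 RNA polymerase I genes, 35 initiation factor genes, 11 elongation and release factor genes and 4 nascent-chain genes tested, 0 were called in either direction in any of the 3 comparisons (edgeR quasi-likelihood). The same held for 19 TOR and translation regulators and 68 mitochondrial ribosomal protein genes. At an unadjusted p under 0.05, these lists held 1 gene in the daf-2 RNAi comparison with empty vector and 2 in the pitr-1 RNAi one. The median log2 fold change of the biogenesis genes was -0.01 for daf-2 RNAi over empty vector and -0.07 for pitr-1 RNAi over empty vector. For initiation factors it was -0.03 with daf-2 RNAi and -0.08 with pitr-1 RNAi. Of the 20 ribosomal RNA genes listed, 5 entered the test and 0 were called, with a median of -0.81 for daf-2 RNAi over empty vector and of -0.54 for pitr-1 RNAi over empty vector.

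Elongation and release factors had medians of -0.08 with daf-2 RNAi and -0.13 with pitr-1 RNAi. Among them eef-2, which encodes the factor that moves the ribosome along the message, had 1302, 3162, 2842 and 3608 CPM in daf-2 RNAi, 2145, 3281, 2417 and 2963 CPM in pitr-1 RNAi, and 3245, 3480.0, 2706 and 3656 CPM in empty vector. Its lowest library was daf-2 RNAi replicate 1, and the groups overlapped. Mitochondrial ribosomal protein genes, which serve a separate ribosome, had 40 of 68 below 0 in daf-2 RNAi with a median of -0.05, and 54 of 68 below 0 in pitr-1 RNAi with a median of -0.15, the same median as that of the cytosolic genes.

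Among the regulators, ncl-1 had the smallest unadjusted p in both comparisons. Its product is a repressor of nucleolar size and ribosomal RNA synthesis. It had 18.9, 30.1, 25.9 and 20.4 CPM in daf-2 RNAi, 23.0, 26.98, 27.7 and 16.4 CPM in pitr-1 RNAi, and 59.7, 38.7, 24.0 and 27.4 CPM in empty vector. The log2 fold change was -0.65 ± 0.29 (SE) for daf-2 RNAi over empty vector and -0.67 ± 0.29 (SE) in pitr-1 RNAi, with unadjusted p of 0.0401 and 0.0355 and adjusted p of 1.00 in both (edgeR quasi-likelihood). Empty vector replicate 1 was far above the other libraries, and the groups overlapped. The S6 kinase gene rsks-1, whose product phosphorylates a small-subunit protein, had 63.8 ± 11.6 CPM in daf-2 RNAi, 55.6 ± 17.6 CPM in pitr-1 RNAi and 73.4 ± 16.3 CPM in empty vector libraries (SD, n = 4 each).

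The differences in the family that passed the test ran along the replicate numbers of the labels. With RNAi treatment in the fit, 38 of 77 ribosomal protein genes differed between replicate numbers (edgeR quasi-likelihood, adjusted p under 0.05), or 49.4%, against 26.6% of all genes tested. Of the 38, 18 belong to the small subunit. In the median gene, 64.8% of the variance of log2 CPM over the 12 libraries lay between replicate numbers and 5.0% between RNAi treatments. Over all genes of at least 5 CPM these shares were 55.7% and 8.45%. Replicate number took the larger share in 74 of 77 genes, and the exceptions were rpl-11.1, rpl-18 and rpl-20.

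The genes with the smallest p by replicate number were rps-17, rpl-39, rps-27 and rps-28, with adjusted p of 0.0006, 0.00096, 0.00153 and 0.00183. All encode small proteins, and that of rpl-39 lines the exit tunnel. For rpl-39 the libraries had 1359, 602, 1109 and 649 CPM in daf-2 RNAi replicates 1 to 4, 2119, 541, 897 and 675 CPM in pitr-1 RNAi, and 1534, 649, 1825 and 790.4 CPM in empty vector. For rps-17 they had 1809.7, 903, 1763 and 956 CPM in daf-2 RNAi, 1814, 819.6, 1600.5 and 907 CPM in pitr-1 RNAi, and 1716, 879, 2557 and 1022 CPM in empty vector. In both genes replicates 1 and 3 were higher than replicates 2 and 4 within every treatment, with no overlap.

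Variation between libraries differed widely within the family. The coefficient of variation over the 12 libraries was 85.0% for rps-29, 71.6% for rps-21 and 67.4% for rps-27, all short small-subunit genes. The levels of rps-29 were 1951, 607, 754 and 599 CPM in daf-2 RNAi, 3737, 504, 668 and 548 CPM in pitr-1 RNAi, and 1103, 572, 1408 and 759 CPM in empty vector, a 7.41-fold range. At the other end rpl-6, rpl-20 and rpl-25.2 had coefficients of 9.49%, 10.2% and 10.5%. The levels of rpl-6 were 1317, 1294, 1492 and 1553 CPM in daf-2 RNAi, 1071, 1352, 1351 and 1410.4 CPM in pitr-1 RNAi, and 1481, 1431, 1548 and 1427 CPM in empty vector.

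Averaged over the treatments, short and long ribosomal protein genes mostly departed from their means in opposite directions in replicates 1, 2 and 4. Of the 38 genes that differed by replicate number, 31 were highest in replicate 1, and their exonic lengths were 236 to 706 bp. The 6 that were lowest in replicate 1 were 566 to 1456 bp long. Long genes outside the naming rule, given here after their values were seen, include rps-6, which encodes the substrate of S6 kinase, and rpl-3, the longest of the family. By library, rps-6 had 352, 1016, 968 and 1268 CPM in daf-2 RNAi, 438, 1053, 741 and 904 CPM in pitr-1 RNAi, and 848, 1129.5, 897 and 1061 CPM in empty vector. For rpl-3 the values were 741, 2013, 1684 and 2676 CPM in daf-2 RNAi, 895, 2198, 1417 and 2149 CPM in pitr-1 RNAi, and 1637, 2250.4, 1554 and 2289 CPM in empty vector. Replicate 1 of rps-6 was the lowest in each treatment, and that of rpl-3 in daf-2 RNAi and pitr-1 RNAi, the reverse of rps-29 in daf-2 RNAi and pitr-1 RNAi.

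When the genes were split by exonic length into 3 groups, 19 of the 26 shortest genes (236 to 476 bp), 13 of the 25 middle genes and 6 of the 26 longest (654 to 1456 bp) differed by replicate number. The median deviation of replicate 1 from the mean of all libraries was 0.53, 0.34 and -0.25 on the log2 scale in the shortest, middle and longest group. In replicate 2 it was -0.39, -0.25 and 0.07, in replicate 3 it was 0.13, 0.10 and 0.06, and in replicate 4 it was -0.26, -0.14 and 0.16. Across the 77 genes, Spearman's rho of the deviation with length was -0.82, 0.81, -0.33 and 0.75 in replicates 1 to 4. Across 9639 genes of at least 5 CPM with a length it was -0.56, 0.66, -0.54 and 0.56. These correlations are across genes, which share the libraries and are not independent replicates.

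**Figure D5:**
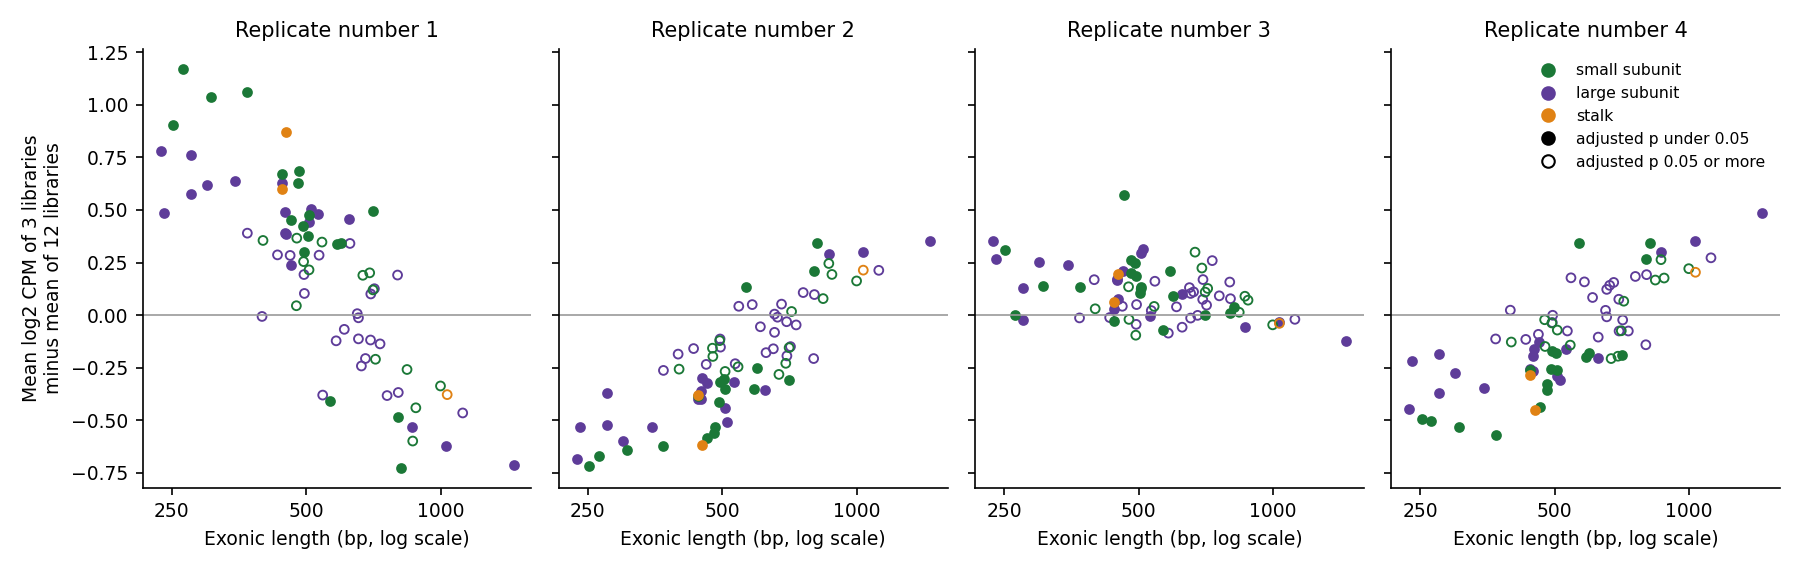
Deviation of each ribosomal protein gene in the 3 libraries of a replicate number from its mean over 12 libraries (log2 CPM), against exonic length on a log scale; filled points passed the test by replicate number (adjusted p under 0.05). Most short genes lie above 0 and most long genes below 0 in replicate 1, and the slope is the opposite in replicates 2 and 4.

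The mitochondrial share of gene counts moved with the same numbers: it was 3.03% to 5.51% in replicate 1 and 2.67% to 3.41% in replicate 3, against 0.747% to 0.950% in replicate 2 and 0.606% to 0.646% in replicate 4. The ratio of small- to large-subunit counts was 0.834 to 0.947 in replicates 1 and 3 and 0.775 to 0.811 in replicates 2 and 4. It averaged 0.829 ± 0.0481 in daf-2 RNAi, 0.835 ± 0.0792 in pitr-1 RNAi and 0.827 ± 0.0411 in empty vector libraries (SD, n = 4 each), so the treatments differed by less than the spread between libraries. The part of RNA quality or library preparation in these differences was not tested.

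Over all libraries, length also ordered the fold changes of the treatments within the family, but not alike in each replicate number. In pitr-1 RNAi over empty vector the median log2 fold change was 0.02, -0.09 and -0.26 in the shortest, middle and longest group, with 12 of 26, 22 of 25 and 25 of 26 genes below 0. In daf-2 RNAi over empty vector it was -0.04, -0.04 and -0.16, with 21 of 26, 17 of 25 and 25 of 26 below 0. Across the 77 genes Spearman's rho with length was -0.73 for pitr-1 RNAi and -0.41 for daf-2 RNAi, against 0.01 and 0.08 across 9639 genes. With the replicate block, 25 of the 26 shortest, 25 of 25 middle and 25 of 26 longest genes were below 0 in pitr-1 RNAi, with medians of -0.09, -0.13 and -0.27. In that fit the sign of the pitr-1 RNAi values was thus the same in short and long genes, and their size still differed with length. In replicate 1 the shortest and longest groups had median deviations from their 12-library means of 0.89 and -0.28 in pitr-1 RNAi. They were 0.50 and -0.55 in daf-2 RNAi and 0.22 and 0.09 in empty vector. In replicate 3 they were -0.17 and -0.15 in pitr-1 RNAi, 0.09 and 0.10 in daf-2 RNAi, and 0.49 and 0.20 in empty vector. By these medians, short genes there lay further below empty vector than long ones. The order without replicate 1 was not tested.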

How the data were processed

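Polyadenylated RNA of 12 libraries was sequenced with a kit that does not mark strand, per the labels' protocols, so reads of antisense or overlapping genes cannot be told apart; other genes overlap at most 18.7% of a member's exonic length. The deposited tables hold raw counts of reads for each gene. The submitters' processing notes list Bowtie 1.2.2, HTSeq and edgeR, without their roles. The build and gene models behind them were not given in the sources used here. The authors also deposited, for 12395 genes, log2 fold changes and log2 CPM, F scores, p-values and false discovery rates, which served only for comparison. Library sizes and tests left out the 5 summary entries; unaligned reads made up 16.3% to 39.8%, ambiguous reads 4.59% to 8.45% and reads outside features 1.71% to 4.60% of a library.

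Calls rest on edgeR 4.0.16 (R 4.3.3): TMM scaling, the filterByExpr filter, which kept 14664 genes, and a robust quasi-likelihood model of the 12 libraries with a term for each treatment. Tests were two-sided, with Benjamini-Hochberg adjustment over all genes tested and calls at an adjusted p under 0.05. Standard errors were derived from each log2 fold change and its F, with 95% intervals from a t distribution, and are approximate. CPM are counts over the TMM-adjusted library size. Exonic length is the union of exons in the Ensembl release 115 annotation, used for lengths only; rpl-41 of the authors is named rpl-36.A there. The common biological coefficient of variation was 0.367, and 0.240 with the replicate block. The code was tested on simulated data.

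Libraries of the same replicate number deviated together: correlations of their deviations from the group means were 0.209 to 0.701 between daf-2 RNAi and empty vector, 0.607 to 0.767 between daf-2 RNAi and pitr-1 RNAi, and 0.187 to 0.715 for pitr-1 RNAi with empty vector. Each was over 0.1, so the numbers were treated as pairing the libraries in the block and the same-number differences, while calls rest on the fit without it. The labels themselves state no pairing. Libraries of different numbers could correlate as strongly. For daf-2 RNAi replicate 1 the correlation was 0.697 with empty vector replicate 3, 0.362 with replicate 1 and -0.697 with replicate 2. For pitr-1 RNAi replicate 2 it was 0.634 with daf-2 RNAi replicate 4 and 0.628 with replicate 2. Alternatives were the block, DESeq2 1.42.0, RLE scaling, no filter, fits without ribosomal RNA and mitochondrial genes, fits of the compared groups alone and each library left out.

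Genes named with values were those with the 4 smallest p in each comparison with empty vector and by replicate number, the 5 highest and 5 lowest per kilobase, paralogs, stalk and fusion genes, the 3 largest and 3 smallest coefficients of variation and up to 3 genes of each related list. The members and lists were chosen with earlier results of these data known.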

Additional observations from a re-analysis of the deposited data

Results flagged for a closer look

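The 29 named genes and 3 summed measures (the share of the 77 genes with and without ribosomal RNA in the denominator, and the ratio of small to large subunit counts) were checked in each of the 3 treatments for a single library far from the other 3, by Dixon's ratio at the 95% level. Of these 96 sets of 4 values, 11 were flagged. Chance flags about 1 in 20 independent sets, a rate that cannot be applied here, since all sets share the same 12 libraries and some of the genes were named for their variation over them.

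Of the 11, 9 were pitr-1 RNAi replicate 1. It was the highest library of its group for rla-1 (3792 CPM, the next at 1355), rla-2 (2463 CPM, the next at 716), rpl-43 (3675 CPM, the next at 1204), rps-21 (3528 CPM, the next at 790.0) and rps-25 (2816 CPM, the next at 1720.0). It was also the highest for rps-27 (3241 CPM, the next at 911), rps-28 (2418 CPM, the next at 792) and rps-29 (3737 CPM, the next at 668). It was the lowest for rpl-24.1 (508 CPM, the next at 815). The 8 genes that were high there are 252 to 451 bp long. In daf-2 RNAi, rps-29 was high in replicate 1 (1951 CPM, the next at 754), and rps-9 was high in replicate 3 (3395 CPM, the next at 2429). The cause was not tested.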

How the results depend on the processing

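No ribosomal protein gene was called in any of the 3 comparisons under any of the 18 alternatives to each, and the 8 log2 fold changes against empty vector recomputed under each (rpl-11.2, rps-2, rps-5 and rps-9 for daf-2 RNAi, rpl-11.1, rpl-11.2, rpl-18 and rps-4 for pitr-1 RNAi) stayed below 0. Those 8 were chosen for the smallest p in these same data, so their keeping the sign is no independent check. Among the 29 named genes, the replicate block turned the sign of 3 for daf-2 RNAi and 10 for pitr-1 RNAi (both against empty vector) and 4 for daf-2 RNAi over pitr-1 RNAi; rps-29 in pitr-1 RNAi moved most, to -0.03 with the block, against 0.51. Genes below 0 numbered 32 to 72 over the fits that left out 1 library for daf-2 RNAi, 38 to 77 for pitr-1 RNAi (both against empty vector) and 11 to 42 for daf-2 RNAi over pitr-1 RNAi; the medians ranged between -0.15 and 0.04, -0.29 and 0.01, and -0.02 and 0.22. In the last comparison 15 genes were below 0 with the replicate block and 15 without the filter on low counts. The block changed no call of a ribosomal protein gene. Calls over all genes moved to 46 with the block, 40 by DESeq2 and 13 without the filter, against 5, in daf-2 RNAi, and to 22, 19, 6 and 0 (with the block, by DESeq2, without the filter, compared groups alone), against 2, in daf-2 RNAi over pitr-1 RNAi. Leaving out 1 library gave 0 to 7 calls over all genes for daf-2 RNAi, 0 to 1 for pitr-1 RNAi (1 with all libraries) and 0 to 3 for daf-2 RNAi over pitr-1 RNAi; for daf-2 RNAi it was 0 without daf-2 RNAi replicate 2 or 4, or empty vector replicate 2 or 3. By replicate number 40 of the 77 genes were called with RLE scaling and 42 without ribosomal RNA and mitochondrial genes, against 38. The 38 stand beside 26.6% of all genes tested, and the shares of all genes under the alternatives are not given here. The summed share was 15.1%, 14.5% and 15.6% in daf-2 RNAi, pitr-1 RNAi and empty vector without ribosomal RNA, and 15.6%, 15.1% and 16.2% without mitochondrial genes as well. Added after seeing the data, the count of 9 genes with every pitr-1 RNAi library lower was 10 with RLE factors and 9 to 20 without 1 library. For daf-2 RNAi it was 0 and 0 to 2. Leaving out a library makes separation easier, so these ranges are no check of the counts. Median standard errors of 0.25 without the replicate block and 0.16 with it limit what a single gene can show.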

Other observations

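Several genes of ribosomal proteins are not among the 77. The gene rpl-16 was at 0 counts in all 12 libraries, where 3 counts correspond to 0.261 to 0.508 CPM, and rpl-42 had 0 to 9 counts per library. Whether reads of rpl-16 were lost in counting could not be tested, so its 0 does not show that the gene was silent. The rpl-41.1 and rpl-41.2 genes averaged 173 and 329 CPM, and both differed by replicate number (edgeR quasi-likelihood, adjusted p = 0.00107 and 0.000677). By replicate number 1 to 4, rpl-41.2, which is 280 bp long, averaged 519, 172, 407 and 219 CPM. The longer rpl-7A (857 bp) averaged 309, 659, 499.7 and 691 CPM and rack-1 (1076 bp), which encodes a scaffold protein on the small subunit, averaged 964, 1591, 1263 and 1545 CPM. The ubiquitin fusion gene ubq-2 (435 bp) averaged 1663, 935, 1300.0 and 1032 CPM. By replicate number rpl-7A and ubq-2 passed the same test (edgeR quasi-likelihood, adjusted p = 0.00385 and 0.0147), and rack-1 did not (adjusted p = 0.0862). None of these genes that entered the test was called between treatments.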
